A study of Homo sapiens with 12 samples.

Results

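Decidualization is the conversion of the fibroblast-like stromal cells of the endometrium into the secretory cells that receive an embryo. In cultured human stromal cells it is usually started with progesterone and cyclic AMP. FOXO1 and the homeobox and HAND factors act as its transcription factors, BMP2, WNT4, LEFTY2 and DKK1 are secreted signals and inhibitors of it, and prolactin (PRL) and IGFBP1 are the secreted proteins by which decidual cells are recognised. The 10 genes PRL, IGFBP1, FOXO1, HAND2, HOXA10, HOXA11, WNT4, BMP2, LEFTY2 and DKK1 were followed here across cytokine treatments. They were chosen by name, through every array probe that the platform's gene table assigns to 1 of them and to no other gene. This gave 10 probes of 8 genes, out of 54359 probes in all. IGFBP1 and WNT4 had 2 probes each, called here the brighter and the dimmer. HOXA10 and HOXA11 had no such probe and were not analysed here. On GRCh38.p14 the RefSeq gene records lie at chr6:22287246-22302835 (PRL), chr7:45888488-45893660 (IGFBP1), chr13:40555667-40666641 (FOXO1), chr4:173526091-173530229 (HAND2), chr1:22117313-22143097 (WNT4), chr20:6767686-6780246 (BMP2), chr1:225936603-225941220 (LEFTY2) and chr10:52314281-52317657 (DKK1).

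The cells were T-HESC, a human endometrial stromal line immortalised with telomerase, so every group came from 1 line. They received TNFα at 5 ng/ml, IL1β at 1 ng/ml, both cytokines at those doses, or vehicle, for 48 h after 24 h without serum. The labels name no progestin, estrogen or cyclic AMP in any group. Each group had 3 single-colour arrays, replicates 1, 2 and 3, which came from passages 13, 28 and 15 in all groups. Values below are log2 of the deposited scaled intensity, on which 0 lies near the median of the array, and the 3 values of a group are given in the order of the replicates.

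All 10 probes had a value on all 12 arrays and were tested among 53671 probes with limma, and a probe was called at a Benjamini-Hochberg adjusted p under 0.05. The cytokines acted on these cells. HSD11B1, which makes cortisol from cortisone, was higher by 5.73 with TNFα, 4.87 with IL1β and 7.12 with both. SOD2, a mitochondrial antioxidant enzyme, was higher by 3.96, 3.49 and 4.77 at the brighter of its 2 probes. All of these were called. The other SOD2 probe differed by 0.16, 0.07 and 0.28 and was not called. CXCL8, a chemokine gene also chosen for this check, was higher by 3.99, 4.59 and 4.87, with all arrays above vehicle each time. It was called with both cytokines (limma adjusted p = 0.00944). With TNFα (adjusted p = 0.0612) and IL1β (adjusted p = 0.132) it was not called, so a change of that size could go uncalled. Of 13 measured stromal marker genes, 12 lay above the array median on average. So did 7 of 10 epithelial, 5 of 9 leukocyte, 2 of 8 endothelial and 3 of 5 smooth muscle markers. Vehicle replicate 3, TNFα replicate 3 and IL1β replicate 2 lay apart at scores of 171, 68.7 and 53.0 on the first principal component, which held 22.6% of the variance, and the other 9 arrays lay at or below -18.2.

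Against this response, no probe of the decidual genes was called in any comparison. With TNFα against vehicle 0 of 10 were called, where 0.0466% of all probes were. With IL1β it was 0 of 10, where 0.00559% of all probes were called, and with both cytokines 0 of 10, where 0.248% were. Calls were so rare over all probes that 0 of 10 lies near the background. At an unadjusted p under 0.05 the counts were 0, 1 and 0 of 10 with TNFα, IL1β and both, against 3784, 5191 and 6911 of all 53671 probes. The median change of the 10 probes was 0.11, 0.12 and 0.09, beside -0.05, -0.13 and -0.13 over all probes.

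Few of the 10 probes had groups fully apart, and few of all probes did, so these counts lie near the background. With TNFα no probe of these genes had all arrays higher or all lower than vehicle, as 3.72% and 6.88% of all probes did. With IL1β 0 had all arrays higher and 1 all lower, beside 3.53% and 9.96%, and with both cytokines 2 and 1, beside 7.02% and 14.8%. Between both cytokines and TNFα the counts were 1 higher and 2 lower, beside 6.5% and 14.7%, and between both and IL1β 1 and 0, beside 8.09% and 6.7%. Over 6 arrays against 6, 0 higher and 1 lower were found for IL1β, beside 0.293% and 1.69%, and 0 and 0 for TNFα, beside 0.373% and 0.218%. With against without TNFα, 0 of 10 were called, where 0.0801% of all probes were.

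**Figure D1:**
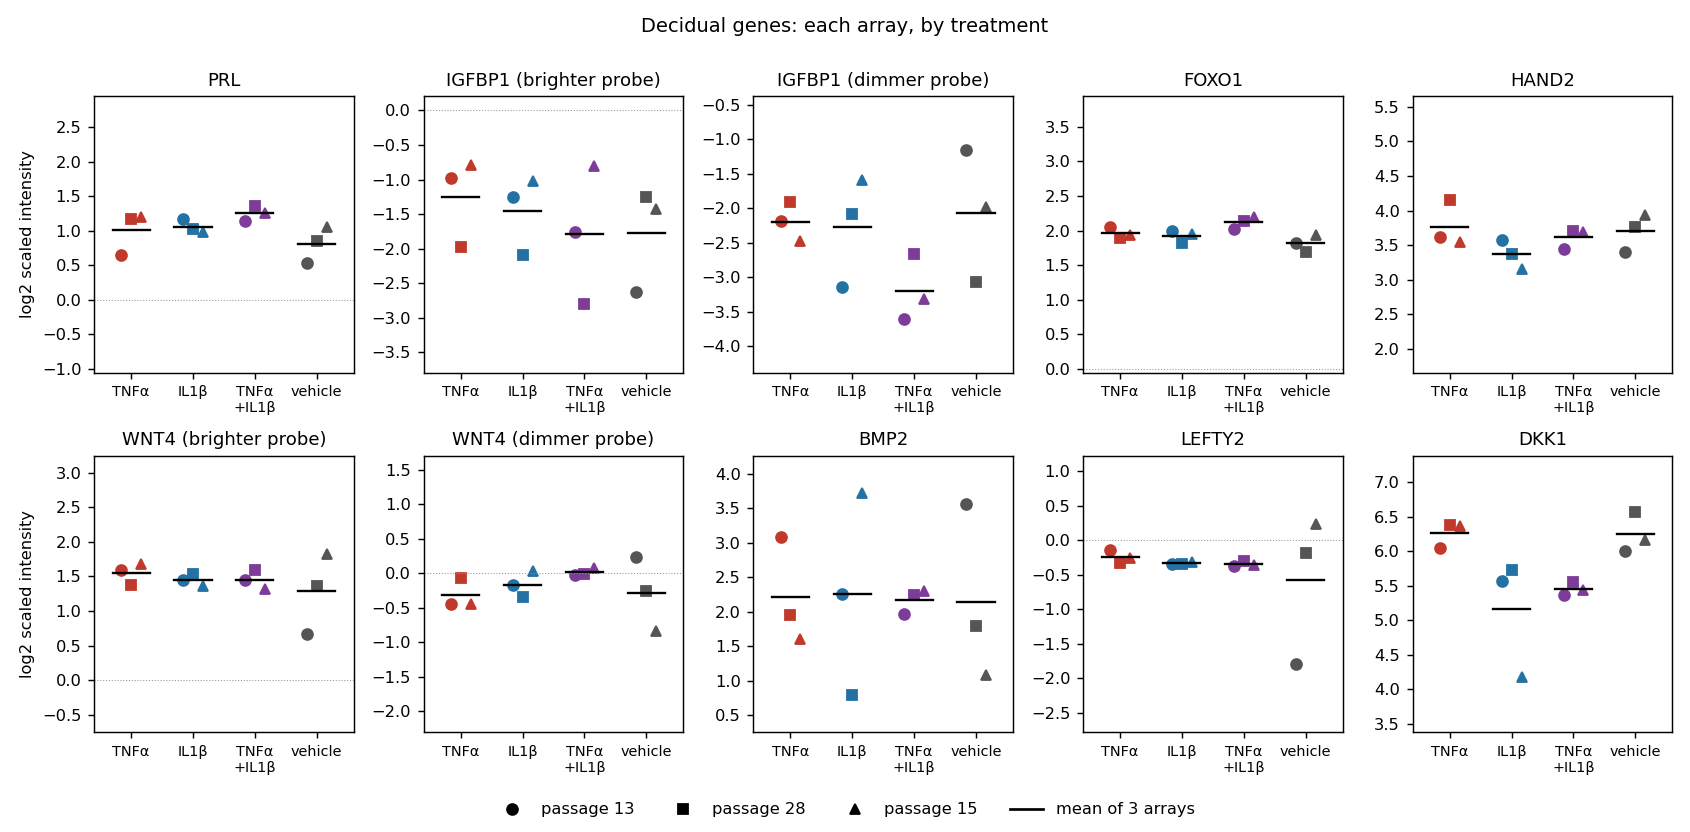
Log2 scaled intensity of each probe of the decidual genes on each of the 12 arrays, by treatment; symbols mark the passage, bars the mean of 3 arrays, and the dotted line log2 0. Each panel spans the same number of log2 units, centred on its own probe. DKK1 lies lower in both groups that received IL1β, at 4.19 to 5.73, than in both groups that did not, at 5.999 to 6.57.

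DKK1, a secreted inhibitor of WNT signalling that binds the LRP5 and LRP6 co-receptors, showed the clearest pattern. It measured 5.56, 5.73 and 4.19 with IL1β and 5.37, 5.56 and 5.44 with both cytokines. It measured 6.05, 6.39 and 6.36 with TNFα, and 5.999, 6.57 and 6.16 with vehicle. Every array with IL1β in the medium lay below every array without it, whether or not TNFα was present.

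On the linear scale, DKK1 averaged 39.5 ± 18.7 with IL1β, 44.0 ± 2.90 with both, 77.5 ± 9.65 with TNFα and 77.0 ± 16.4 with vehicle (SD, n = 3 each). The log2 difference from vehicle was -1.09 with IL1β (95% interval -1.89 to -0.28, limma adjusted p = 0.438) and -0.79 with both (-1.60 to 0.02, adjusted p = 0.397). With TNFα it was 0.02 (-0.78 to 0.83, adjusted p = 0.998). Adding IL1β to TNFα gave a difference of -0.81 (adjusted p = 0.979), where 0.00186% of all probes were called. None of these passed the test. For a call, DKK1 would have needed a difference of 3.68 in size with IL1β, 2.19 with both and 2.68 with TNFα. Between both cytokines and TNFα it would have needed 3.81.

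IL1β replicate 3 set much of the size of the IL1β difference. Without it the difference was -0.60 (adjusted p = 0.725), and with arrays weighted by their quality it was -1.65. With quantile normalization the difference with both cytokines was -0.43. Leaving out vehicle replicate 3, TNFα replicate 3 and IL1β replicate 2 gave an IL1β difference of -1.41 (adjusted p = 0.311).

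Taking the 6 arrays with IL1β against the 6 without it, a comparison added after these values had been seen, DKK1 was lower by a log2 difference of -0.95 ± 0.26 (SE; 95% interval -1.52 to -0.38). The unadjusted p was 0.00404 and the limma adjusted p 0.330, so DKK1 was not called. In this comparison 0.0112% of all probes were called. The IL1β difference was 0.27 less negative with TNFα present than without it, with a 95% interval of -0.87 to 1.41 (adjusted p = 1.00), and 0% of all probes were called for such an interaction.

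The summed level of the epithelial marker genes is given beside DKK1, because all 6 arrays with IL1β also lay below vehicle in it. The summed scaled intensity of the 10 measured of 11 listed ranged over 30.4 to 68.6 with IL1β, 43.9 to 46.6 with both, 63.8 to 111 with TNFα and 91.1 to 125 with vehicle. In the order of the replicates, the sum was 65.2, 111 and 63.8 with TNFα and 91.1, 125 and 92.7 with vehicle. One of the 10, the keratin gene KRT18, fell with both cytokines, by 1.58 on the log2 scale (adjusted p = 0.0447), and 0.0608% of genes fell there. The other 9 did not pass. With both cytokines 5 of the 10 had all arrays lower than vehicle and 1 all higher, beside 14.8% and 7.02% of all probes. With IL1β alone 5 were all lower and 0 all higher, beside 9.96% and 3.53%. Of the 10, 4 lay above 0 with both cytokines, and the 1 all higher was the transcription factor gene ELF3 (0.73, adjusted p = 0.180). No epithelial marker had a linear intensity at or below 0 on all arrays of a group. The epithelial adhesion gene EPCAM averaged -1.36 and the tight junction gene CLDN3 -3.22 on the log2 scale. Of the genes with 12 values, those whose pattern over the 12 arrays was most like that of DKK1 were FAM171B (Pearson r = 0.925), the keratin gene KRT19 (0.917) and the cell cycle inhibitor CDKN2B (0.915), a description over arrays of 4 groups. KRT19 is also 1 of the genes in the sum, so its likeness to DKK1 and that of the sum are not separate observations. The part of the epithelial markers in the DKK1 values was not tested.

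**Figure D2:**
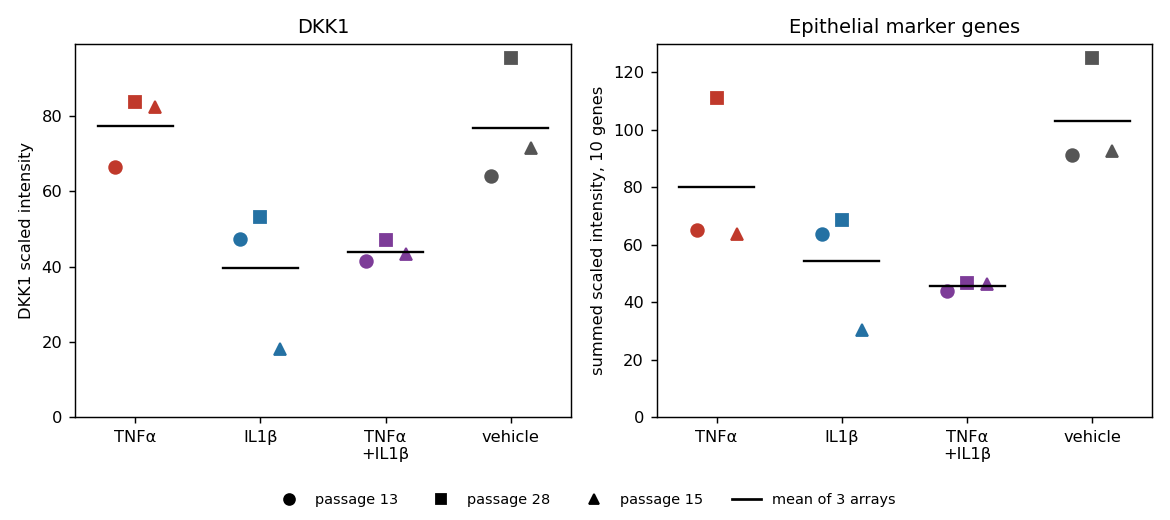
Scaled intensity of DKK1 (left) and the summed scaled intensity of 10 epithelial marker genes (right) on each array, on linear axes from 0; symbols mark the passage and bars the mean of 3 arrays. Both lie lowest on IL1β replicate 3, at 30.4 for the marker sum, and highest on vehicle replicate 2, at 125. KRT19 is the brightest of the 10 genes on average and weighs most in the sum.

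PRL, the hormone used most widely as a marker of decidual cells, measured 1.15, 1.36 and 1.27 with both cytokines. It measured 0.66, 1.16 and 1.20 with TNFα, 1.17, 1.03 and 0.98 with IL1β, and 0.53, 0.85 and 1.05 with vehicle. The 3 arrays with both cytokines lay above all vehicle arrays, and the single cytokines overlapped vehicle. The difference with both was 0.45 (95% interval -0.01 to 0.91, limma adjusted p = 0.402), and it was 0.20 with TNFα and 0.25 with IL1β. With arrays or passages left out, the single-cytokine differences ran over 0.056 to 0.37 and 0.056 to 0.41. Without vehicle replicate 1 they were 0.056 and 0.11.

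FOXO1, the forkhead factor that binds the promoters of PRL and IGFBP1 in decidual cells, measured 2.02, 2.13 and 2.20 with both cytokines. It measured 2.04, 1.90 and 1.94 with TNFα, 1.99, 1.82 and 1.94 with IL1β, and 1.82, 1.68 and 1.93 with vehicle. The arrays with both cytokines lay above all vehicle arrays and above all IL1β arrays, by narrow margins. The difference from vehicle was 0.30 (95% interval -0.04 to 0.65, adjusted p = 0.444) and from IL1β 0.20 (adjusted p = 1.00), where 0% of all probes were called. The residual SD of FOXO1 was lower than that of all but 0.376% of probes, and a difference of 0.94 would have been needed for a call with both cytokines.

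IGFBP1, which binds insulin-like growth factors at the decidual surface, was dim at both probes, with means of -1.57 and -2.44 over the 12 arrays. The dimmer probe measured -3.60, -2.67 and -3.32 with both cytokines and -1.16, -3.07 and -1.98 with vehicle, and these overlapped. Their difference was -1.13 (95% interval -2.27 to 0.02, adjusted p = 0.392). It was -0.47 without passage 13, -1.89 without passage 28 and -0.31 with an offset of 0.5 added before the log. The brighter probe differed by -0.02 (-1.28 to 1.24), so the 2 probes of the gene did not show the same difference. The files give no detection calls, so whether either probe lay above background is unknown.

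**Figure D3:**
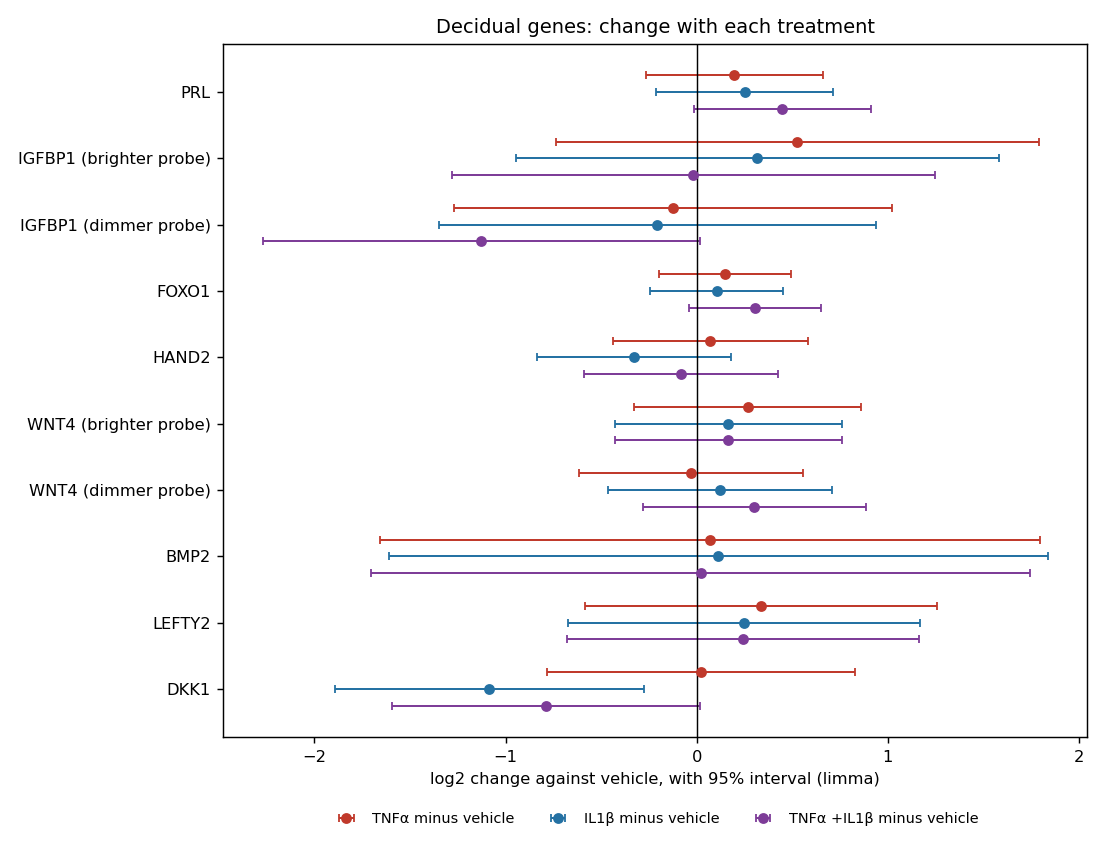
Log2 difference from vehicle of each probe with TNFα, IL1β and both cytokines, with its 95% interval from limma. Of the 30 intervals, that of DKK1 with IL1β, -1.89 to -0.28, is the one that leaves out 0, before any adjustment for the number of probes.

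HAND2, a transcription factor downstream of progesterone in the stroma, measured 3.57, 3.37 and 3.16 with IL1β and 3.39, 3.76 and 3.94 with vehicle, which overlapped. The difference was -0.33 (95% interval -0.84 to 0.18, adjusted p = 0.676), with 0.07 for TNFα and -0.08 for both. With arrays or passages left out, the IL1β difference ran over -0.58, without passage 13, to -0.10, without passage 15, and it was -0.12 with quantile normalization. Its antisense neighbour HAND2-AS1, outside the chosen genes and looked at after the values were seen, had 3 probes and none was called. The dimmest of them had all IL1β arrays below vehicle, as 9.96% of all probes did. It lay at -3.18 ± 0.19 with IL1β and -1.99 ± 0.54 with vehicle (SD, n = 3 each; adjusted p = 0.431). The brighter ones overlapped vehicle, with IL1β differences of -0.09 and -0.42.

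The secreted signals varied within groups. BMP2, a growth factor needed for decidualization in mice, measured 2.27, 0.79 and 3.73 with IL1β and 3.56, 1.80 and 1.08 with vehicle. Its residual SD of 1.05 exceeded that of 89.1% of probes, and its interval with both cytokines was -1.71 to 1.74. A difference of 4.68 would have been needed for a call there. LEFTY2, an inhibitor of nodal signalling, lay at -0.37 to -0.15 on the 9 cytokine arrays and at -1.79, -0.19 and 0.23 with vehicle, so its vehicle arrays spanned the cytokine arrays.

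WNT4, a WNT ligand induced in decidual stroma, overlapped vehicle at both probes with every treatment. The differences were 0.27, 0.17 and 0.16 at the brighter probe with TNFα, IL1β and both, and -0.03, 0.12 and 0.30 at the dimmer. At the dimmer probe the arrays with both cytokines, at -0.02, -0.01 and 0.08, lay above those with TNFα, at -0.44, -0.06 and -0.45. That difference was 0.33 (adjusted p = 0.981).

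Each probe was also set against all genes with 12 values, to find the patterns most like it over the 12 arrays. For FOXO1 these were DIRC1 (Pearson r = 0.949), MYO1A (0.919) and the selenium-dependent peroxidase gene GPX3 (0.904), and for PRL LOC101926948 (0.904), TMEM191C (0.898) and FOXE3 (0.888). For BMP2 they were the junction gene JUP (0.956), CCN4 (0.927) and LRRC32 (0.920), and for HAND2 FOXP3 (0.911), IGSF1 (0.891) and LINC01491 (0.890). For LEFTY2 they were LINC01596 (0.963), OR1J2 (0.958) and LINC01023 (0.951). The brighter WNT4 probe lay closest to KRT27 (0.967), DRD2 (0.964) and PDCD5 (0.958), and the dimmer to SLC44A5 (0.940), AGTPBP1 (0.933) and PLA2R1 (0.928), so the 2 probes shared none. The IGFBP1 probes shared none either, with CPA5 (0.883), CDNF (0.876) and HECW2-AS1 (0.854) for the brighter and UBXN2B (0.875), MMP16 (0.839) and MTNAP1 (0.838) for the dimmer. With 16994 genes searched over 12 arrays of 4 groups, these are descriptions only.

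The DKK1, PRL and FOXO1 promoters are shown because these genes had all arrays of a treatment apart from vehicle. Each is the 250 bases before the RefSeq start on GRCh38.p14, 5′ to 3′ on the gene's strand, with TATAAA matches on either strand in capitals.
DKK1, chr10:52314031-52314280, plus strand: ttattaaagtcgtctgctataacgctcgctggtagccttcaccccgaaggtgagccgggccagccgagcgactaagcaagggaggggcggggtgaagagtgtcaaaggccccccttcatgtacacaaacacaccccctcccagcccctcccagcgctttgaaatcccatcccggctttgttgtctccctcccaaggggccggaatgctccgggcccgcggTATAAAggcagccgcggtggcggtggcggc
PRL, chr6:22297037-22297286, minus strand: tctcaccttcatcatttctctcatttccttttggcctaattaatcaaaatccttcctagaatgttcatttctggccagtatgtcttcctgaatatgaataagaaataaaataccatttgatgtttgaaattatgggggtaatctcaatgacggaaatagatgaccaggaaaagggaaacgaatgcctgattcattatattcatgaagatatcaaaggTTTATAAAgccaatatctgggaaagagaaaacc
FOXO1, chr13:40666642-40666891, minus strand: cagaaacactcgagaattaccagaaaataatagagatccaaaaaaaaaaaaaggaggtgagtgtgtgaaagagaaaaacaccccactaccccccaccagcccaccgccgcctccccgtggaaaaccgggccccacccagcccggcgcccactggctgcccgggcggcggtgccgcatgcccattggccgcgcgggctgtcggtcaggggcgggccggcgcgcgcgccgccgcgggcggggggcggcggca

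None of the 3 windows held the FOXO core GTAAACA, the cyclic AMP element TGACGTCA or the NF-kB consensus, read on both strands, which 2.98%, 1.65% and 9.96% of 35114 promoters held. TATAAA was found in 10.7% of them, and in the DKK1 and PRL windows but not that of FOXO1. The PRL window lies 5799 bases inside the gene record, and in human decidual cells PRL is known to be transcribed from an alternative promoter further upstream. Of the windows searched but not shown, that of WNT4 held 4 NF-kB matches, counted on each strand, and none of the other elements. The HAND2, HOXA10 and HOXA11 windows held no FOXO core, cyclic AMP element or NF-kB consensus. A match or its absence in any of these windows is a description only.

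Other genes of decidualization were counted from lists drawn up with earlier results of these data known. Of 28 measured decidual secretory and metabolic genes, 1 rose with each treatment, HSD11B1 in all 3 cases, and 1 fell with both cytokines. The one that fell was CORIN, a protease that activates atrial natriuretic peptide in the pregnant uterus, at -0.64 ± 0.32 with both and 1.06 ± 0.30 with vehicle (SD, n = 3 each; adjusted p = 0.0466). Over all genes, 0.287% rose and 0.0608% fell with both cytokines, 0.0663% and 0.011% with TNFα, and 0.011% and 0% with IL1β.

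Of 41 hormone receptors and transcription factors, 1 rose with both cytokines, where 0.287% of all genes rose, and none with either alone. CEBPD, a C/EBP factor, reached 4.73 ± 0.06 with both and 2.26 ± 0.14 with vehicle, a difference of 2.47 (adjusted p = 0.0102). Its difference with IL1β was 1.52 (adjusted p = 0.289). With TNFα the lowest p was that of the homeobox gene MSX2, with a difference of 0.94 (adjusted p = 0.329).

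No gene of the 4 signalling lists was called with any treatment: 0 of 52 WNT, 0 of 37 BMP, nodal and activin, 0 of 26 cyclic AMP, and 0 of 27 insulin, AKT and FOXO genes. Over all genes 0.287% rose and 0.0608% fell with both cytokines, and fewer with either alone, so these counts of 0 lie near the background. The lowest p in the WNT list with both cytokines was that of DKK2, a relative of DKK1, at -2.43 (adjusted p = 0.129). In the BMP list it was SMAD9, a signal transducer of BMP receptors, at -1.80 (adjusted p = 0.0887). ADCY7, an adenylyl cyclase, differed by 1.02 (adjusted p = 0.212) and IGF1, the growth factor, by 0.93 (adjusted p = 0.173). The list medians with both cytokines lay between -0.17 and 0.18, beside -0.10 over all genes.

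**Figure D4:**
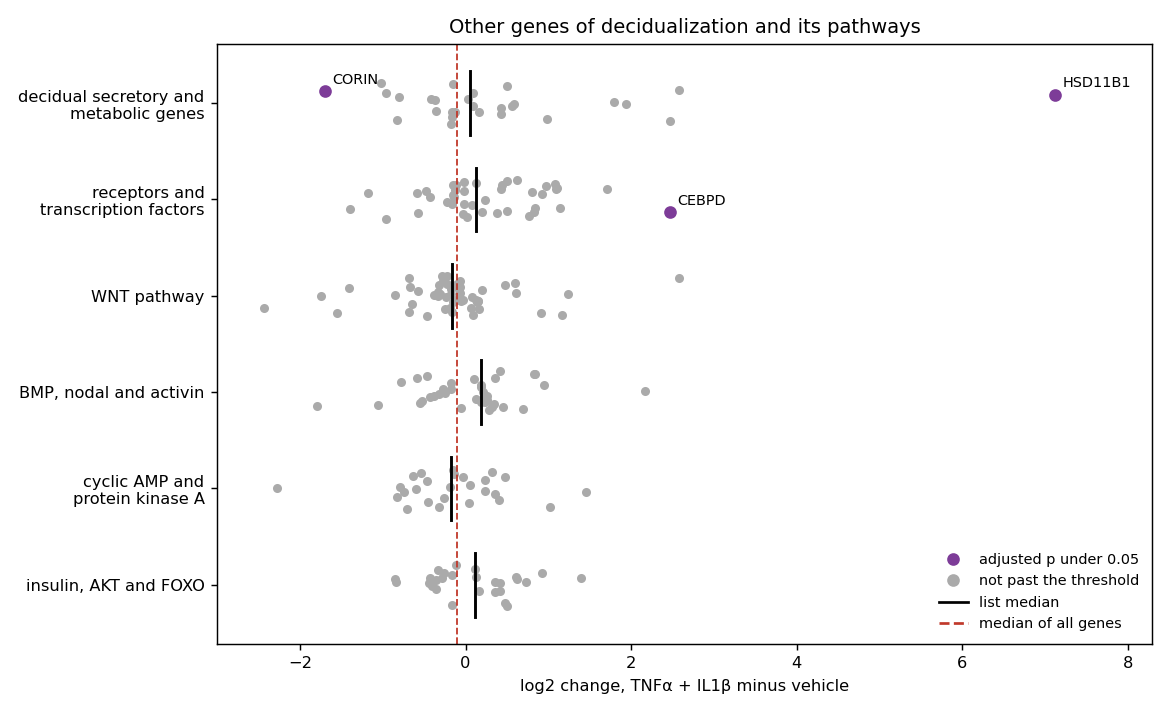
Log2 difference of each measured gene of 6 lists, both cytokines minus vehicle; purple points passed an adjusted p of 0.05, black bars are list medians and the dashed line is the median of all genes, -0.10. The 3 genes past the threshold are HSD11B1, CEBPD and CORIN.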

How the data were processed

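The deposited values were linear intensities of single-colour CodeLink arrays, 1 per labelled cRNA per the labels; how the authors read the images, corrected background and scaled is not given in the sources used here. From array medians near 1, the intensities were taken to be scaled per array. The submitters' code for missing (0.716% of values) and values at or below 0 (1.10%) were set to missing, then log2 was taken. Probes with values on at least 2 arrays of every group (53671) were tested with limma 3.58.1 in R 4.3.3, with 4 group means over all 12 arrays, two-sided, with Benjamini-Hochberg adjustment over all probes. With 3 arrays a group, the smallest two-sided p of an exact permutation test is 0.1. Gene names came from the platform table through Entrez identifiers (23434 of 23472 single-gene probes). The number of arrays limits the precision.

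The members, gene lists and alternatives were chosen with earlier results of these data known. The text names all members and the 3 genes most like a member. For the secretory list and the list of receptors and transcription factors it names, per comparison with vehicle, up to 3 called genes or the one with the lowest p. For the signalling lists it names the gene with the lowest p with both cytokines only. Passages are named as biological replicates in the labels, and the fit had no block because the series text names none. Arrays of the same passage correlated in their deviations from group means at a mean r of 0.00712 over 18 pairs (range -0.196 to 0.310). A mean over many probes does not show the part of passage in a single probe. Values were recomputed under up to 28 settings, where a setting kept the probe and allowed the comparison: other scaling, offsets, filters, variance priors, weights, a passage block, and arrays or passages left out. The comparisons over 6 arrays against 6 were added after the members' values were seen. Promoters of 7 of the 10 genes came from RefSeq (GRCh38.p14).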

Additional observations from a re-analysis of the deposited data

How the results depend on the processing

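No probe of the decidual genes was called in any of the 8 comparisons under the settings run, 28 in all, and the lowest adjusted p was 0.075, for DKK1 with against without IL1β under array quality weights. Fits of the compared groups alone were run for 5 comparisons and not for the interaction or the comparisons of 6 arrays with 6, the filter on dim probes kept 6 of the 10 probes, and 1 probe per gene kept 8. With passage as a replicate block, 0 of the 10 probes were called, and the block changed no call. Of 2162 values of single probes under other settings, 1973 kept their sign and 189 changed it, 147 of them with an array or a passage left out. None of these was called in either case, the differences as reported that changed sign were at most 0.53 in size, and the cause was not tested. Quantile normalization brought the median change of all probes to -0.00069 with IL1β and -0.00044 with both cytokines, where it was -0.13 in each case under the deposited scaling. The limits are 3 arrays a group, 1 cell line, no detection calls and dim IGFBP1 probes. The sign changes follow as log2 differences.

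With quantile normalization, the values were for TNFα against vehicle IGFBP1 dimmer probe 0.17, for IL1β against vehicle IGFBP1 dimmer probe 0.054, for both cytokines against vehicle IGFBP1 brighter probe 0.23 and HAND2 0.090, for both against TNFα BMP2 0.0080, for both against IL1β LEFTY2 0.0079 and for the interaction PRL -0.010. With median centring, the values were for the interaction PRL -0.016. With array quality weights, the values were for TNFα against vehicle IGFBP1 dimmer probe 0.56 and DKK1 -0.25, for IL1β against vehicle IGFBP1 dimmer probe 0.60, for both against IL1β WNT4 brighter probe 0.033, for the interaction FOXO1 -0.063, for arrays with against without IL1β LEFTY2 -0.028 and for arrays with against without TNFα IGFBP1 brighter probe -0.17. With an offset of 0.1, the values were for both cytokines against vehicle IGFBP1 brighter probe 0.0052. With an offset of 0.5, the values were for both cytokines against vehicle IGFBP1 brighter probe 0.017 and BMP2 -0.014. Without the 3 arrays that lay apart, the values were for TNFα against vehicle IGFBP1 dimmer probe 0.063, BMP2 -0.16 and DKK1 -0.068, for IL1β against vehicle WNT4 dimmer probe -0.061, for both cytokines against vehicle IGFBP1 brighter probe 0.15, HAND2 0.039 and BMP2 -0.51, for both against IL1β WNT4 brighter probe 0.042, for the interaction PRL -0.035, FOXO1 -0.064 and HAND2 -0.058, for arrays with against without IL1β IGFBP1 brighter probe 0.25 and BMP2 -0.020 and for arrays with against without TNFα IGFBP1 brighter probe -0.094 and WNT4 dimmer probe -0.078. With the first component as a covariate, the values were for TNFα against vehicle BMP2 -0.086, for IL1β against vehicle BMP2 -0.15, for both cytokines against vehicle IGFBP1 brighter probe 0.089 and BMP2 -0.49, for both against TNFα WNT4 brighter probe 0.016 and LEFTY2 0.070, for both against IL1β WNT4 brighter probe 0.081 and LEFTY2 0.11 and for arrays with against without IL1β BMP2 -0.28.

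With arrays or passages left out, the values that changed sign were these. For TNFα against vehicle, IGFBP1 brighter probe ran over -0.039 to 1.15, IGFBP1 dimmer probe over -0.77 to 0.33, HAND2 over -0.12 to 0.31, WNT4 brighter probe over -0.068 to 0.54, WNT4 dimmer probe over -0.31 to 0.29, BMP2 over -0.46 to 0.78, LEFTY2 over -0.32 to 0.75 and DKK1 over -0.10 to 0.19. For IL1β against vehicle, IGFBP1 brighter probe ran over -0.22 to 0.89, IGFBP1 dimmer probe over -0.80 to 0.68, WNT4 brighter probe over -0.14 to 0.48, WNT4 dimmer probe over -0.25 to 0.39, BMP2 over -1.15 to 0.85 and LEFTY2 over -0.36 to 0.66. For both cytokines against vehicle, IGFBP1 brighter probe ran over -0.51 to 0.75, HAND2 over -0.23 to 0.039, WNT4 brighter probe over -0.15 to 0.50, WNT4 dimmer probe over -0.0064 to 0.58, BMP2 over -0.58 to 0.83 and LEFTY2 over -0.37 to 0.66. For both against TNFα, HAND2 ran over -0.30 to 0.036, WNT4 brighter probe over -0.26 to 0.032 and BMP2 over -0.42 to 0.49. For both against IL1β, IGFBP1 brighter probe ran over -0.83 to 0.17, WNT4 brighter probe over -0.070 to 0.066, BMP2 over -0.87 to 0.64, LEFTY2 over -0.033 to 0.011 and DKK1 over -0.19 to 0.58. For the interaction, PRL ran over -0.17 to 0.14, FOXO1 over -0.042 to 0.18, HAND2 over -0.20 to 0.44, WNT4 brighter probe over -0.54 to 0.069, WNT4 dimmer probe over -0.10 to 0.49, BMP2 over -0.90 to 0.73, LEFTY2 over -0.75 to 0.32 and DKK1 over -0.21 to 0.56. For arrays with against without IL1β, IGFBP1 brighter probe ran over -0.36 to 0.25, WNT4 brighter probe over -0.12 to 0.26, WNT4 dimmer probe over -0.0074 to 0.36, BMP2 over -0.79 to 0.65 and LEFTY2 over -0.23 to 0.28. For arrays with against without TNFα, IGFBP1 brighter probe ran over -0.15 to 0.50, WNT4 brighter probe over -0.034 to 0.27, WNT4 dimmer probe over -0.064 to 0.24, BMP2 over -0.42 to 0.36, LEFTY2 over -0.16 to 0.38 and DKK1 over -0.13 to 0.33.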
